A study of Mus musculus with 16 samples.

Results

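Wnt ligands, their receptors, their secreted inhibitors and the proteins that carry the signal to the nucleus were followed in the hypothalamus of weanling mice. The genes were chosen by symbol: those beginning with Wnt, Fzd, Sfrp, Dkk, Dvl or Axin and a digit, plus Tcf7, Tcf7l1, Tcf7l2, Lef1, Lrp5, Lrp6, Ctnnb1, Apc, Gsk3b, Porcn and Wls. Of 16593 genes with a named probe on the array, 49 met this rule, with 71 of the 25697 probes. Axin1, Fzd5, Fzd9, Fzd10os and Tcf7 also meet the rule but were not analysed here, as no probe carries their name. A probe was tested when its detection p-value, which sets its signal against the negative controls of the same array, was under 0.05 on at least 8 of 16 arrays. This left 33 of the 49 genes (43 probes) among 10244 tested genes of the array.

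The arrays, Illumina MouseRef-8 v2, held hypothalamic RNA of 16 female C57BL/6J mice of the F1 generation at 21 days of age, each mouse on its own array. In the 8 control mice (CON) the mother ate freely, and in the 8 mice with undernutrition during lactation (LUN) she received 50% of the amount that control mothers ate, from birth to weaning; litters were set at 8 pups in both groups. Each of 2 BeadChips carried 4 CON arrays in its first positions and 4 LUN arrays in its last, so that position and group cannot be told apart. F1 data of the study came from fewer CON litters than there are CON arrays here; if that holds for the arrays, at least some CON mice were littermates. The litter of each array is unknown here, so the tests took the mice as independent of one another. Mean signal per array was 394 to 516 in CON and 351 to 414 in LUN before normalization, and 14540 to 15384 probes were detected per array. Of 19 hypothalamic markers on the array 14 passed the detection filter, among them Oxt, Avp and Pmch, and Nr5a1, Sim1, Otp, Rax and Kiss1 did not. Arrays CON 4 and CON 8 stood apart from the other controls. Over 13 thalamic genes their mean centred log2 value was 0.68 and 0.38, against -1.47 to -0.32 on the other CON arrays. On the LUN arrays it was 0.44 to 0.86. Over the 14 hypothalamic markers it was -0.22 on CON 4 and -0.21 on CON 8, against 0.23 to 0.50 on the other CON arrays. On the LUN arrays it was -0.44 to -0.02. Counts, and the changes of some genes, are given below with and without CON 4 and CON 8. LUN 7 and LUN 1 stood apart in choroid plexus genes, whose summed level was 20129 and 7516 there, against 723 to 2274 on the other 14 arrays.

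Wnt proteins are secreted glycoproteins that carry a lipid added in the endoplasmic reticulum. In the canonical branch of the pathway a Wnt binds a Frizzled receptor together with Lrp5 or Lrp6, the cytoplasmic complex built on Axin and Apc stops marking beta-catenin for destruction, and beta-catenin enters the nucleus and joins the factors of the Tcf and Lef family on target genes. In the brain the pathway patterns the neural tube, shapes the blood vessels and, in later life, acts at synapses. The factor Tcf7l2 is a known marker of postmitotic neurons of the habenula and of the thalamus, and the thalamus lies next to the hypothalamus.

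The largest changes among the Wnt genes were rises of 2.64-fold in Fzd10, 2.29-fold in Tcf7l2, 2.2-fold in Wnt9b and 1.82-fold in Lef1. The largest fall was in Fzd2, whose level was 1.6-fold higher in CON. Wnt9b and Lef1 were above background on only 4 and 3 of the 8 CON arrays, so the size of their change depended on the background correction. The size of the Fzd2 change depended on it too, and was under 1.5-fold with signals left uncorrected for background. Apc, Fzd1, Wnt10a, Ctnnb1 and Axin2 rose by less than 1.5-fold, and Sfrp1 and Fzd3 fell by less than 1.5-fold. In all, 9 of the 33 tested genes were higher in LUN at an adjusted p-value under 0.05 and 3 were lower (limma, Benjamini-Hochberg adjustment over all tested probes), where 7.17% and 8.59% of all tested genes passed in these directions. With a change of at least 1.5-fold required as well, 4 genes were higher and 1 was lower, against 0.84% and 0.547% of all tested genes. The remaining 21 genes did not pass. The median change, LUN minus CON on the log2 scale as everywhere below, was 0.01 over the 33 genes and -0.01 over all tested genes; the median size of a change without its sign was 0.16 and 0.10. A positive change was found in 17 of the 33 genes and in 47.1% of all tested genes. The counts of higher and lower genes were 7 and 7 when arrays were scaled to a common median in place of quantile normalization, and 5 and 13 with no normalization between arrays. Over all genes these counts were 735 and 880 in the first place, then 350 and 2897, and then 122 and 6158. The median change over all tested probes was -0.09 under median scaling and -0.25 with no normalization, and changes under these scalings are read against it.

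**Figure D1:**
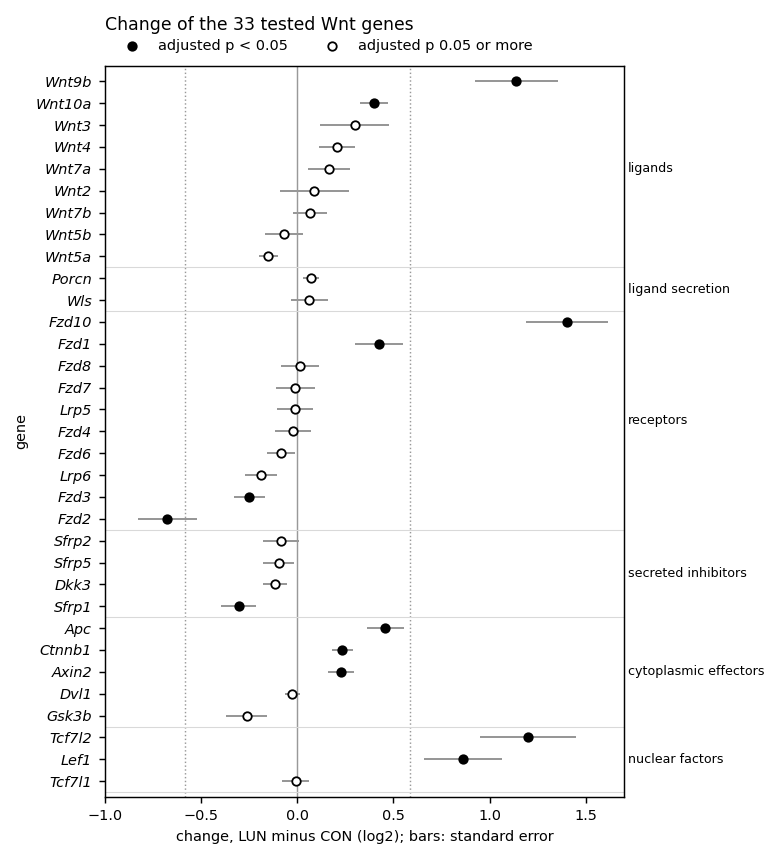
Change of each of the 33 tested Wnt genes, LUN minus CON on the log2 scale (horizontal axis), grouped by role in the pathway; bars are standard errors, filled points have an adjusted p-value under 0.05 and dotted lines mark 1.5-fold. The 4 genes to the right of the dotted line are Fzd10 at 1.40, Tcf7l2 at 1.20, Wnt9b at 1.14 and Lef1 at 0.86, and Fzd2 at -0.68 is the gene to the left of the other line.

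Detection divided the ligands most clearly. All 10 receptors on the array were tested, but only 9 of 19 ligands and 4 of 8 secreted inhibitors. Wnt1, Wnt3a, Wnt8b, Wnt10b, Wnt11, Dkk2, Dkk4, Sfrp4, Dvl2 and Dvl3 were detected on none of the 16 arrays. Wnt6 was detected on 3 CON arrays and no LUN array, and Wnt9a on 3 CON and 2 LUN arrays. Dkk1 was detected on 1 array of each group, Wnt16 and Wnt2b on 1 CON array each and Wnt8a on 1 LUN array. An array probe at background gives no level, so these 16 genes were not compared between the groups. Of the 33 tested genes, 27 were detected on every array, and among these 7 rose and 3 fell, against 7.59% and 9.14% of the 9068 genes so detected. Lef1 and Wnt9b were detected on all 8 LUN arrays but on 3 and 4 CON arrays, so they passed the filter mainly through the group in which they were high.

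**Figure D2:**
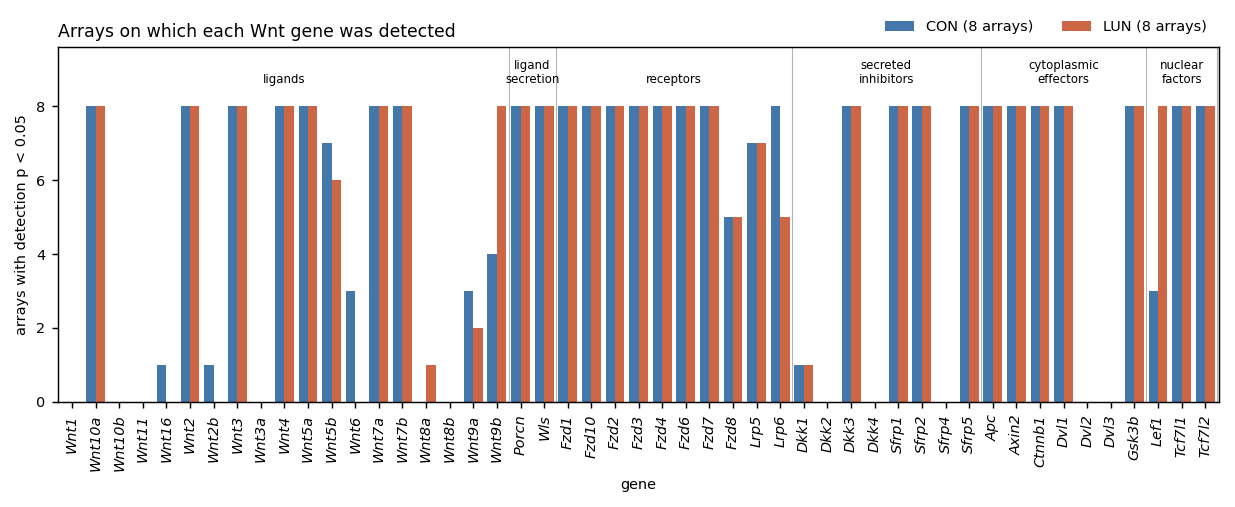
Number of CON arrays (blue) and LUN arrays (red), out of 8 each, on which each of the 49 Wnt genes had a detection p-value under 0.05 (vertical axis), for the probe that stands for the gene. All 10 receptors reach 8 arrays in total, while 10 of 19 ligands do not, and Lef1 and Wnt9b have full bars in LUN beside bars of 3 and 4 in CON.

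Among the ligands, Wnt9b and Wnt10a rose. Wnt9b, a canonical ligand best known from kidney tubules and the face, ranged from 4.44 to 6.13 on the CON arrays (median 4.97, normalized log2 values) and from 5.93 to 6.61 on the LUN arrays (median 6.39). CON 8 reached 6.13 and CON 4 reached 5.92, while the other 6 CON arrays stayed at or below 5.50, so the groups overlapped only through CON 8. The change was 1.14 (SE 0.22, adjusted p = 0.00247, limma), and a second probe gave 0.99 (SE 0.25, adjusted p = 0.013). It was 1.25 on BeadChip 1, 1.02 on BeadChip 2 and 1.43 without CON 4 and CON 8. As 4 CON arrays were not above background, the size of the change is uncertain: it was 0.62 with uncorrected signals, 0.66 with an offset of 50 and 2.35 in the deposited log2 values. Wnt10a, a ligand of skin, hair and tooth development, had a narrower spread: 4.95 to 5.40 in CON (median 5.16) and 5.37 to 5.84 in LUN (median 5.56). Of the CON arrays only CON 8 lay inside the LUN range. The change of Wnt10a was 0.40 (SE 0.07, adjusted p = 0.00202), 0.47 and 0.33 on the BeadChips in order. Its signal lay not far above background, at 76.2 to 91.3 in CON (median 82.3) and 79.0 to 96.0 in LUN (median 84.5) before correction and normalization, and its change was 0.20 with uncorrected signals and 0.69 in the deposited log2 values.

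The other ligands did not pass with the probe that stands for the gene. Wnt4, which acts in the female reproductive tract and the adrenal gland among other organs, changed by 0.21 with its brighter probe (SE 0.09, adjusted p = 0.139) and by 0.24 with its dimmer one (SE 0.07, adjusted p = 0.0335, detected on 6 CON and 8 LUN arrays). Without CON 4 and CON 8 the brighter probe changed by 0.27 with an adjusted p of 0.0485. The probes of Wnt5a, the typical ligand of the branches that do not use beta-catenin, went in opposite directions. The brighter one ranged from 8.26 to 8.44 in CON and from 8.08 to 8.35 in LUN, a change of -0.15 (SE 0.05, adjusted p = 0.0514). The dimmer one, detected on 5 CON and 7 LUN arrays, changed by 0.31 (SE 0.12, adjusted p = 0.103), so that no single direction can be given for the gene. Wnt3, a canonical ligand of the early embryo and of neurons, changed by 0.30 (95% confidence interval -0.08 to 0.67, adjusted p = 0.277), and by 0.52 without CON 4 and CON 8 (adjusted p = 0.0168). For Wnt7a and Wnt7b, which neural cells send to the vessels of the brain, the changes were 0.16 (interval -0.06 to 0.39) and 0.06 (interval -0.12 to 0.25). Wnt2 changed by 0.09 (interval -0.29 to 0.47), the widest interval among the ligands that did not pass, and Wnt5b by -0.07 (interval -0.27 to 0.13).

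Porcn and Wls, on which the release of every lipid-carrying Wnt depends, were detected on all arrays and did not pass. Porcn, the acyltransferase that attaches the lipid, changed by 0.07 (95% confidence interval -0.02 to 0.16), and by -0.01 with its dimmer probe (interval -0.17 to 0.15). Wls, the carrier that brings Wnts to the cell surface, changed by 0.06 (interval -0.14 to 0.27).

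The 10 receptors included the gene with the largest change of the 33 and genes that went the other way: Fzd10 and Fzd1 rose, Fzd2 and Fzd3 fell, and 6 did not pass. Fzd10, a Frizzled receptor with restricted expression in the embryonic brain and spinal cord, ranged from 5.19 to 7.00 in CON (median 5.88) and from 7.14 to 7.59 in LUN (median 7.36). The groups did not overlap, although CON 8 at 7.00 and CON 4 at 6.81 came close to the lowest LUN array and the other CON arrays stayed at or below 6.14. The change was 1.40 (SE 0.21, adjusted p = 0.000692), a 2.64-fold higher level. A second probe, detected on 5 CON and 8 LUN arrays, changed by 1.05 (SE 0.15, adjusted p = 0.000461) and did not overlap either. Before correction and normalization the groups overlapped with both probes. The highest CON signal was 178.9 and the lowest LUN signal 177.8, and for the second probe they were 97.1 and 91.9. In normalized values, non-overlapping groups with LUN higher were found for Fzd10 and Apc among the 33 Wnt genes, against 0.927% of all tested genes. With LUN lower they were found for none, against 1.32%. The change of Fzd10 was 1.48 on BeadChip 1, 1.32 on BeadChip 2 and 1.71 without CON 4 and CON 8. Fzd1, a receptor for canonical ligands, ranged from 5.80 to 6.77 in CON (median 6.30) and from 6.52 to 6.93 in LUN (median 6.67), and only CON 4 and CON 2 lay inside the LUN range. Its change of 0.43 (SE 0.12, adjusted p = 0.0264) was uneven over the BeadChips, at 0.13 on the first and 0.72 on the second. It no longer passed when any 1 of CON 5, CON 6 and CON 7 was left out, the 3 lowest arrays.

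Fzd2, a receptor for both canonical ligands and Wnt5a, fell. It ranged from 6.07 to 7.05 in CON (median 6.79) and from 5.42 to 6.56 in LUN (median 6.16). CON 8 was the lowest control by far, and the other 7 CON arrays all lay above the highest LUN array. The change was -0.68 (SE 0.15, adjusted p = 0.00711), with -0.91 on BeadChip 1, -0.45 on BeadChip 2 and -0.81 without CON 4 and CON 8. Without LUN 3, the lowest array, its change no longer reached 1.5-fold. The change of Fzd2 was also under 1.5-fold with uncorrected signals and with an offset of 50, and it passed the adjusted p in both. Fzd3, which guides axon growth through planar cell polarity, ranged from 5.52 to 5.94 in CON (median 5.80) and from 5.34 to 5.87 in LUN (median 5.51), with 4 LUN arrays below the lowest control and LUN 8 above 6 of the controls. Its change of -0.25 (SE 0.08, adjusted p = 0.044) was close to the threshold and fell short of it in 12 of the 16 fits that left out 1 array, as well as without CON 4 and CON 8 together (adjusted p = 0.0779). Fzd4, the receptor for norrin in retinal and brain vessels, changed by -0.02 (95% confidence interval -0.22 to 0.17). Fzd6 changed by -0.08 (interval -0.24 to 0.07), Fzd7 by -0.01 (interval -0.22 to 0.20) and Fzd8 by 0.01 (interval -0.20 to 0.23, detected on 5 arrays of each group). The co-receptors of the canonical branch were near background. Lrp5, detected on 7 arrays of each group, changed by -0.01 (interval -0.21 to 0.19). Lrp6, detected on 8 CON and 5 LUN arrays, changed by -0.19 (interval -0.37 to -0.01, adjusted p = 0.148).

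All 4 tested secreted inhibitors had a negative change, and 1 of them, Sfrp1, fell. Over all tested genes the change was positive in 47.1%, so a negative sign was common. Sfrp proteins resemble the outer part of a Frizzled receptor and bind Wnts outside the cell. Sfrp1 ranged from 5.88 to 6.32 in CON (median 6.10) and from 5.46 to 6.06 in LUN (median 5.79). Of the LUN arrays 6 lay below the lowest control, and LUN 4 and LUN 5, both at 6.06, lay within the CON range. The change was -0.31 (SE 0.09, adjusted p = 0.0275), -0.39 on BeadChip 1 and -0.22 on BeadChip 2, and it did not pass without CON 2, CON 5, LUN 2 or LUN 7, left out singly. Sfrp2 changed by -0.08 (95% confidence interval -0.28 to 0.11) and Sfrp5 by -0.10 (interval -0.27 to 0.07). Dkk3, a relative of the Lrp5 and Lrp6 antagonists that is abundant in neurons, changed by -0.12 with both of its probes (adjusted p = 0.229 and 0.226), and without CON 4 and CON 8 by -0.18 with the brighter probe (adjusted p = 0.031) and by -0.17 with the dimmer one (adjusted p = 0.0845).

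Inside the cell, Apc, Ctnnb1 and Axin2 rose and Dvl1 and Gsk3b did not pass. Apc, the scaffold of the complex that marks beta-catenin for destruction, ranged from 6.63 to 7.45 in CON (median 7.18) and from 7.49 to 7.79 in LUN (median 7.64). After normalization every LUN array was above every CON array, with CON 2 far below the other controls. Before correction and normalization the groups overlapped, with signals of 135 to 237 in CON (median 219) and 189 to 244 in LUN (median 228). The change was 0.46 (SE 0.09, adjusted p = 0.00404), 0.42 on BeadChip 1 and 0.50 on BeadChip 2. With no normalization the change of Apc was 0.19 and did not pass, with the median change over all probes at -0.25. A second Apc probe was detected on no array. Ctnnb1, which encodes beta-catenin, ranged from 12.26 to 12.63 in CON (median 12.49) and from 12.53 to 12.84 in LUN (median 12.70); of the controls CON 2 and CON 4 lay inside the LUN range, and 7 LUN arrays were above CON 4. The change was 0.23 (SE 0.06, adjusted p = 0.00958), equal on both BeadChips at 0.23, and a second probe gave 0.19 (SE 0.06, adjusted p = 0.0413).

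Axin2, a scaffold of the destruction complex and a widely used readout of canonical signalling because beta-catenin activates its gene, ranged from 8.06 to 8.44 in CON (median 8.16) and from 8.18 to 8.68 in LUN (median 8.41). CON 4 stood apart at 8.44, and 4 LUN arrays were above it. The change was 0.23 (SE 0.07, adjusted p = 0.0282), 0.14 on BeadChip 1 and 0.32 on BeadChip 2, and it did not pass in 7 of the 16 fits that left out 1 array. With no normalization both Ctnnb1 and Axin2 changed by -0.06, which was 0.19 above the median change of -0.25 over all probes, and under median scaling each changed by 0.10 and did not pass. Before normalization the median signal of Axin2 was 364 in CON and 346 in LUN, and that of Ctnnb1 was 6284 and 5798. Gsk3b, the kinase of the destruction complex, changed by -0.26 (95% confidence interval -0.49 to -0.04, adjusted p = 0.101). Dvl1, which relays the signal from the receptor, changed by -0.03 with its brighter probe (interval -0.11 to 0.06) and by 0.20 with its dimmer one (interval 0.02 to 0.39, adjusted p = 0.135).

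Of the 3 nuclear factors, Tcf7l2 and Lef1 rose and Tcf7l1, known mostly as a repressor, changed by -0.01 (95% confidence interval -0.16 to 0.14). Tcf7l2 ranged from 8.36 to 10.45 in CON (median 8.89) and from 10.04 to 10.60 in LUN (median 10.34). Of the CON arrays 7 lay below the lowest LUN array, CON 8 just among them, and CON 4 at 10.45 lay inside the LUN range. The spread was 0.77 in CON and 0.19 in LUN (SD, n = 8 each). The change was 1.20 (SE 0.25, adjusted p = 0.00432), a 2.29-fold higher level, and the second probe gave 1.18 (SE 0.26, adjusted p = 0.00581). It was 1.21 on BeadChip 1, 1.19 on BeadChip 2 and 1.56 without CON 4 and CON 8. Lef1, the family member that most often acts as an activator, ranged from 4.47 to 5.95 in CON (median 4.76) and from 5.51 to 6.25 in LUN (median 5.96). It was detected on 3 CON arrays, CON 4, CON 6 and CON 8, and of these CON 4 and CON 8 lay inside the LUN range. The change was 0.86 (SE 0.20, adjusted p = 0.00862), 1.00 and 0.73 on the BeadChips in order, and 1.15 without CON 4 and CON 8. With 5 controls not above background its size is uncertain: it was 0.44 with uncorrected signals, 0.46 with an offset of 50, both under 1.5-fold, and 2.11 in the deposited log2 values. CON 4 and CON 8 held the 2 highest control values of Tcf7l2, Fzd10, Wnt9b and Lef1 alike.

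**Figure D3:**
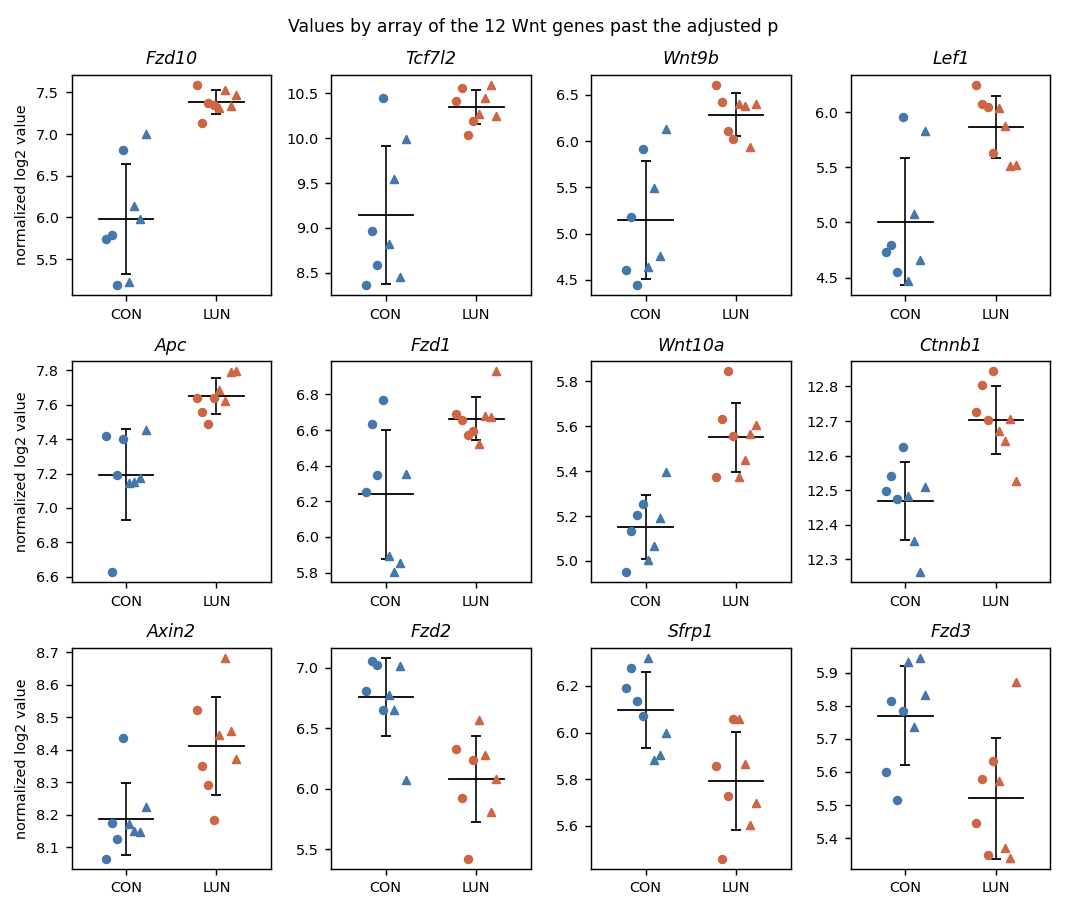
Normalized log2 value (vertical axis, different range in each panel) on each CON array (blue) and LUN array (red) for the 12 Wnt genes with an adjusted p-value under 0.05; circles are BeadChip 1, triangles BeadChip 2, and lines give the mean and SD of 8 arrays. In Fzd10, Tcf7l2, Wnt9b and Lef1 the same 2 controls, CON 4 and CON 8, lie near or among the LUN arrays, while in Apc every LUN array lies above 7.45, the highest control.

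The promoter windows of the 4 genes that rose by over 1.5-fold are shown because Tcf7l2 and Lef1 proteins bind DNA themselves, at a motif searched here on both strands as the word AACAAAG and its variants in the opening bases (first ATCAAAG, next TACAAAG, last TTCAAAG). Each window is the 250 bases before an annotated start (RefSeq, build GRCm38.p6), printed 5′ to 3′ along the gene, with a match in capitals. Tcf7l2 is given with both of its annotated starts, at chr19:55741560-55741809 and chr19:55895071-55895320 on the plus strand. Lef1 is given with its most downstream window, chr3:131156044-131156293 on the plus strand, the only 1 of its 4 that held a match. Its other windows are not printed. Fzd10 has the window chr5:128600856-128601105 on the plus strand and Wnt9b the window chr11:103749822-103750071 on the minus strand.
Tcf7l2, upstream start: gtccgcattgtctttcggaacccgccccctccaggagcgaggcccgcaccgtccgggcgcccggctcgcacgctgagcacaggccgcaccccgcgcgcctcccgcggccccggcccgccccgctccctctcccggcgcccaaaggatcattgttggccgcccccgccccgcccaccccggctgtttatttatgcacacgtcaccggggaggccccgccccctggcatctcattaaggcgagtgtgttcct
Tcf7l2, downstream start: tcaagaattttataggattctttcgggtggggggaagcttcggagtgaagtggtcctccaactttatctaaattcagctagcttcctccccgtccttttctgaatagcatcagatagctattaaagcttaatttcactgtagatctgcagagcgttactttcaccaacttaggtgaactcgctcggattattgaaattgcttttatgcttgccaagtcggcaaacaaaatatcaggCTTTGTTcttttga
Lef1, most downstream start: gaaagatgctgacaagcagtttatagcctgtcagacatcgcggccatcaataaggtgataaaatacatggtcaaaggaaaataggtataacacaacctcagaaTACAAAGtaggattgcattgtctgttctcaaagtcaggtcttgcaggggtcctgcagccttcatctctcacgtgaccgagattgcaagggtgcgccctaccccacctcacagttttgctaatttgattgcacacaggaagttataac
Fzd10: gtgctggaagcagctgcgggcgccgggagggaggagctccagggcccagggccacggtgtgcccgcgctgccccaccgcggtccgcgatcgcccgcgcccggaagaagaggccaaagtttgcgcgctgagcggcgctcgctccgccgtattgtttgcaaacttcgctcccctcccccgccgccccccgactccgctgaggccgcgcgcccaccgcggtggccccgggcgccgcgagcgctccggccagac
Wnt9b: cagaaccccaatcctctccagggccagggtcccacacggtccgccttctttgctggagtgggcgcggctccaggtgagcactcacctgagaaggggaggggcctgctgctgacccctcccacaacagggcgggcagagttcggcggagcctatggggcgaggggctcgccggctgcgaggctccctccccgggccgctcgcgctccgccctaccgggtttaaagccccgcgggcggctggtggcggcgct
The downstream window of Tcf7l2 held CTTTGTT, the reverse complement of AACAAAG, 14 to 8 bases before the start, and the window of Lef1 held TACAAAG 147 to 141 bases before it. The other windows of Tcf7l2, Lef1, Fzd10 and Wnt9b held none of the words. At least 1 of the words was present in 14.8% of all 32851 windows, in 6 of the 41 windows of Wnt genes on the array (14.6%), in 2 of the 12 windows of Wnt genes that passed (16.7%), and in 2 of the 8 windows of those past 1.5-fold as well (25%), which are the matches printed above. Windows were matched for 33 of the 49 genes and for 7 of the 12 that passed. A match describes the letters of a window and is not a bound site, and the last counts are too small to be read as a difference.

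Genes of the pathway outside the families above were read from a list of 93, of which 85 were on the array and 65 were tested. Of these, 4 rose, 1 fell and 60 did not pass, where 7.17% of all tested genes rose and 8.59% fell. Neither count stood above that share. The median change of the 65 genes was 0.04, against -0.01 over all tested genes. A positive change was found in 44 of the 65, against 47.1% of all tested genes. Ctnnbip1, which blocks the meeting of beta-catenin and Tcf factors, rose by 0.29 (SE 0.07, adjusted p = 0.00742), and Csnk2a2, a catalytic subunit of casein kinase II, by 0.18 (SE 0.04, adjusted p = 0.008). Siah1a, a ubiquitin ligase that can send beta-catenin to destruction, rose by 0.18 (SE 0.06, adjusted p = 0.0386). Notum, the enzyme that removes the lipid from Wnts, rose by 0.30 (SE 0.10, adjusted p = 0.0498) and was detected on 4 CON and 6 LUN arrays. Kremen2, a receptor for Dkk1 that takes part in the removal of Lrp6, fell by 0.31 (SE 0.08, adjusted p = 0.0148). None of the 6 tested target genes (Sp5, Ccnd1, Jun, Ccn4, Cd44 and Edn1), 13 nuclear cofactors and 7 planar cell polarity genes passed. Their smallest adjusted p-value was 0.057, for the polarity gene Celsr3 (change 0.21). Of the targets, Edn1 changed by 0.24 (adjusted p = 0.187), Cd44 by -0.19 (adjusted p = 0.0724), Ccnd1 by -0.12, Jun and Sp5 by 0.11 each and Ccn4 by 0.08.

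Markers of other tissues and cells moved with the group, and in bulk RNA fewer cells of a type and less RNA per cell cannot be told apart. All 13 genes of one list taken as thalamic rose, among them Gbx2, Prkcd and Slc17a7, the last of which is not particular to the thalamus. The mean over the 13 was 1.24 higher in LUN on the log2 scale. That list was chosen on these samples and is no independent evidence of its direction. Of 6 tested thalamic genes outside it 1 rose, Lhx9, and the mean over the 6 was 0.35 higher. The summed level of the 13 genes, on the linear scale of the normalized values, ranged from 2175 to 9419 in CON and from 7818 to 10904 in LUN, and that of the 6 from 5613 to 8492 and from 6588 to 8482. No thalamic gene of the first list was below the detection filter; in the second, Zic5 and Ptpn3 were. In habenula markers 0 of 6 rose and 1 fell, and their summed level was 590 to 1171 in CON and 517 to 1185 in LUN. Pou4f1 and Chrnb4 were below the filter. The level was uneven over the arrays, at 1171 on CON 4, 1064 on LUN 6 and 1185 on LUN 7, against 517 to 739 on the others. Of 14 hypothalamic markers 9 fell and none rose, and of 14 markers of the meninges 9 fell and none rose, with mean changes of -0.47 and -0.40. The summed level of the hypothalamic markers was 17086 to 29374 in CON and 16027 to 20916 in LUN, that of the meningeal markers 4890 to 8477 and 4167 to 5290, and that of the 5 red cell genes, which all fell, 10011 to 23522 and 5074 to 12022. Of the tested markers, 2 of 9 rose and 2 fell for endothelium, 0 of 6 passed for choroid plexus, 2 of 5 fell for tanycytes and ependyma, and 2 of 9 rose and 3 fell for astrocytes. For oligodendrocytes 2 of 9 fell, for their precursors 1 of 6 rose, and for microglia 1 of 8 rose and 1 fell. The part of these tissues and cells in the Wnt results was not tested.

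The 5 Wnt genes past 1.5-fold were set against the thalamic scores within each group of 8 arrays, 20 relations in all. CON 4 and CON 8 were known to be high in both, so values over all 8 CON arrays partly restate that, and values without them are given beside. Tcf7l2 followed the 13 thalamic genes over the CON arrays (Pearson r = 0.99, exact permutation p = 2.48e-05, the smallest possible; adjusted over the 20 relations 0.000496). Spearman's rho was 1 (exact permutation p = 4.96e-05, adjusted 0.000992). Without CON 4 and CON 8, the arrays farthest from the median score, r was 0.97 (exact permutation p = 0.00139). Over the LUN arrays r was 0.78 (exact permutation p = 0.0253, adjusted 0.0562) and rho 0.76 (p = 0.0368, adjusted 0.123). With the thalamic genes outside the first list, r for Tcf7l2 was 0.88 in CON (exact permutation p = 0.00124, adjusted 0.0101) and 0.82 in LUN (p = 0.0156, adjusted 0.0495), with rho of 0.90 (p = 0.00456, adjusted 0.0456) and 0.83 (p = 0.0154, adjusted 0.0769). Without the 2 arrays farthest from the median these r were 0.63 (exact permutation p = 0.175) in CON, where the relation was then not detectable, and 0.85 (p = 0.0431) in LUN.

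With the 13 genes, Wnt9b had r = 0.94 (exact permutation p = 0.00151, adjusted 0.0101) and rho = 0.86 (p = 0.0107, adjusted 0.0714), and r was 0.84 (p = 0.0389) without CON 4 and CON 8. Lef1 had r = 0.93 (exact permutation p = 0.0027, adjusted 0.0135) and rho = 0.76 (p = 0.0368, adjusted 0.123), and r was 0.65 without them (p = 0.153), so its relation was not detectable in the other 6 controls. Fzd10 had r = 0.81 (exact permutation p = 0.0173, adjusted 0.0495) and rho = 0.71 (p = 0.0576, adjusted 0.144), and with r = 0.27 (p = 0.586) after their removal the relation rested on those 2 arrays. Fzd2 had r = -0.69 (exact permutation p = 0.047, adjusted 0.0855) and rho = -0.60 (p = 0.132, adjusted 0.265), and r was -0.38 without them. In CON, Wnt9b was detected on only 4 arrays and Lef1 on only 3. Their other CON values were at background, so their r in CON partly sets detected arrays against undetected ones. Within the LUN group, Wnt9b, Lef1, Fzd10 and Fzd2 had r of 0.57, 0.48, 0.23 and 0.23, with exact permutation p-values of 0.143, 0.221, 0.59 and 0.589. The same genes against the thalamic genes outside the first list had r of 0.73, 0.84, 0.68 and -0.45 in CON and of -0.14, 0.15, -0.21 and -0.22 in LUN.

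**Figure D4:**
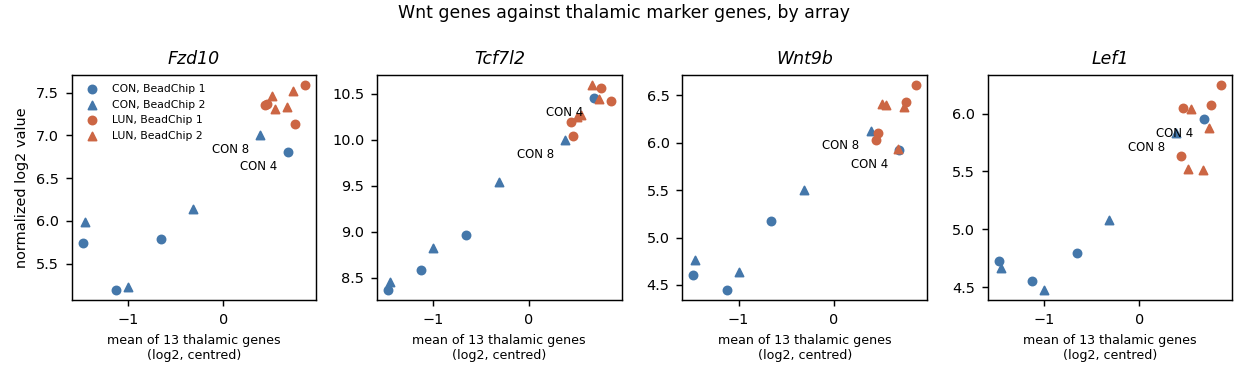
Normalized log2 value of Fzd10, Tcf7l2, Wnt9b and Lef1 (vertical axes) against the mean centred log2 value of 13 thalamic genes (horizontal axis) on each CON array (blue) and LUN array (red); circles are BeadChip 1 and triangles BeadChip 2. CON 4 and CON 8, at 0.68 and 0.38 on the horizontal axis, lie with the LUN arrays, and the Tcf7l2 values of the CON arrays rise with the thalamic mean (r = 0.99).

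Without CON 4 and CON 8, 11 Wnt genes were higher in LUN and 3 lower, where 9.43% and 11.8% of all tested genes passed in the same fit. Wnt3 and Wnt4 joined the higher genes, and among the lower ones Dkk3 passed with 1 of its probes and Fzd3 did not. Without LUN 1 and LUN 7, the arrays with high choroid plexus genes, 7 Wnt genes were higher and 1 lower (4.59% and 5.32% of all tested genes), and Axin2, Fzd1, Fzd3 and Sfrp1 did not pass. On BeadChip 1 alone, with 4 arrays a group, no Wnt gene passed by limma, and 10 of the 33 had an unadjusted p-value under 0.05, against 16.9% of all tested genes, of which 4 (0.039%) passed. On BeadChip 2 alone Apc and Fzd1 passed, against 1.28% of all tested genes, and 12 Wnt genes had an unadjusted p-value under 0.05, against 20.2%.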

How the data were processed

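Hypothalamic RNA of 8 CON and 8 LUN mice was measured on 16 arrays, and each array was given its group from its label. The authors deposited intensity values (mean signal over the beads of a probe, GenomeStudio), which are neither background-subtracted nor normalized between arrays. The detection p-values deposited beside them come from GenomeStudio and set each signal against the negative controls of its array. A table of log2 values deposited by the authors, quantile-normalized and centred on each probe's median, was used as an alternative.

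Intensities were background-corrected (normexp, offset 16, background estimated from the detection p-values), quantile-normalized and log2-transformed with neqc of limma 3.58.1 in R 4.3.3. Of 25697 probes, 23978 had 1 gene in the platform annotation and 1719 had none; symbols were checked by Entrez ID, with 16 probes unmatched. Probes with a detection p-value under 0.05 on at least 8 arrays (14870) were fitted by lmFit and eBayes, with no term beside group, and the Benjamini-Hochberg adjustment ran over all of them. The tested probe of highest mean stood for its gene, and levels of different probes were not compared. Rose and fell are used for an adjusted p under 0.05. The fit was tested on simulated data with independent noise for each probe. These data hold none of the shared differences between arrays seen here, so that test does not cover them.

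Every gene of the rule is accounted for. Genes past the adjusted p are given by array, the other tested genes by change, and the untested ones by detection. All probes are given where those of a gene differ in passing or in direction. Up to 6 other pathway genes are named in each direction, those with the lowest p-values. The genes and lists (other pathway genes, thalamus in 2 parts, habenula, hypothalamus, meninges, endothelium, choroid plexus, tanycytes and ependyma, astrocytes, oligodendrocytes and their precursors, microglia, red cells) were chosen with earlier results of these data known. The target genes and Celsr3 were named after their values had been seen. A list's mean was taken over its tested genes after each gene was centred on its mean over the 16 arrays. Correlations were tested by two-sided exact permutation of all pairings, with ranks and the Benjamini-Hochberg adjustment taken from SciPy 1.17.1. The alternatives were other scalings, background corrections, detection filters, tests, probes, BeadChip as a block or alone, the replicate number as a block, and arrays left out; leaving out LUN 1 and LUN 7 was chosen after seeing the data. The number of arrays limits the precision.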

Additional observations from a re-analysis of the deposited data

Results flagged for a closer look

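Within the groups of 8 arrays, 6 of 66 sets of values (33 genes in 2 groups) held an array far from the others, judged by its gap to the nearest array over the whole range; about 1 in 20 sets is expected to do so by chance. Fzd2 on CON 8 was 6.07, against 6.65 to 7.05 on the other CON arrays. Axin2 on CON 4 was 8.44 (others 8.06 to 8.22), Fzd7 on CON 4 was 7.28 (others 6.64 to 6.79) and Wnt7b on CON 4 was 6.35 (others 6.74 to 7.01). Apc on CON 2 was 6.63, below the other CON arrays at 7.14 to 7.45. Fzd1 on LUN 8 was 6.93, above the other LUN arrays at 6.52 to 6.69. CON 4 and CON 8 account for 4 of the 6, and they are also the controls whose thalamic genes were highest.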

How the results depend on the processing

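Under the quantile-normalized fit 9 Wnt genes were higher in LUN, 3 were lower, and with 1.5-fold required 4 and 1. Median scaling gave 7 higher and 7 lower, and no normalization 5 and 13, where Axin2 (-0.0587) and Ctnnb1 (-0.0597) changed sign with the median of all probes at -0.25, 0.19 below both. Over all genes, 350 were higher and 2897 lower under median scaling, and 122 and 6158 with no normalization, against 735 and 880. With uncorrected signals, or with an offset of 50, 3 genes were higher and 0 lower by 1.5-fold. Detection on all 16 arrays, which leaves 27 genes, gave 2 higher by 1.5-fold. The deposited log2 values gave 9 and 4, and the methods' t-test 9 and 3. BeadChip 1 alone gave 0 higher and 0 lower, also by 1.5-fold, and BeadChip 2 alone 2 and 0, with 1 and 0 by 1.5-fold; these fits hold 4 arrays a group. Leaving out each array in turn gave 7 to 9 higher and 1 to 3 lower, and 4 to 4 and 0 to 1 by 1.5-fold. The lowest counts of lower genes came without CON 2 or LUN 2 (1 each), when Sfrp1 and Fzd3 did not pass, and without LUN 3 Fzd2 changed by less than 1.5-fold. Leaving out CON 4 and CON 8 together gave 11 and 3, and leaving out LUN 1 and LUN 7, chosen after seeing the data, 7 and 1. The replicate numbers do not pair the arrays: the correlation of same-numbered arrays' deviations was -0.29 to 0.10, and 1 of 8 arrays correlated best with its own number. With the number as a replicate block 8 genes were higher and 3 lower, and 4 and 1 by 1.5-fold, Axin2 being lost. Over the 12 genes that passed and all alternatives, 318 values kept direction and call, 62 kept direction only and 2 changed sign. The causes were not tested. The changes of genes near background ranged widely over the alternatives, from 0.44 to 2.11 for Lef1, 0.62 to 2.35 for Wnt9b and 0.20 to 0.69 for Wnt10a.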
